A study of Mus musculus with 6 samples.

Results

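The constant genes of the antibody loci were followed across all immune cells of the series. They are the 6 features Igkc, Iglc1, Iglc2, Iglc3, Ighm and Ighd, found by symbol in every matrix, out of 5301 features that stand in at least 1 matrix and 1642 that stand in all 3. A B cell builds its receptor from paired heavy and light chains. The heavy chain constant part of a naive B cell comes from Ighm (IgM) and, by alternative splicing of the same long transcript, from Ighd (IgD). The light chain comes either from the kappa locus, whose only constant gene is Igkc, or from the lambda locus, whose constant genes include Iglc1, Iglc2 and Iglc3. A mature B cell as a rule shows light chain protein of 1 kind, and mice use kappa far more often than lambda.

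Single-cell RNA-seq with a 3′ droplet kit was made from CD45+ cells of liver. Balb/c mice received 4T07 mammary carcinoma cells into the heart, carrying either a scrambled hairpin in pLKO.1 (Ctrl) or a hairpin against Tim3 in pLKO-Puro (Tim3-KD), so the knockdown lies in the tumour cells and the sorted cells hold no check of it. A piece of liver was taken on day 3 from tissue labelled as without tumor (adjacent), from micrometastasis on day 3 (micro) and from macrometastasis on day 12 (macro). Each of the 6 groups is 1 library from a pool of 2 mice, so no group has replicates. The groups of a site were not tested against each other, and every interval given here is a 95% interval that covers counting error only.

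The deposited values were scaled scores, from which whole UMIs (unique molecular identifiers, 1 per captured RNA molecule) were recovered. The libraries held 1803 (Ctrl adjacent), 542 (Tim3-KD adjacent), 5106 (Ctrl micro), 5142 (Tim3-KD micro), 4913 (Ctrl macro) and 5502 (Tim3-KD macro) cells, with a median of 6300 to 10248 UMIs per cell. Clusters were made without the 6 genes. The B-like cells were 2291 of 23008, in the order above 259, 196, 649, 71, 598 and 518 cells, that is 14.4, 36.2, 12.7, 1.38, 12.2 and 9.41% of the library. Their defining markers were present: Cd79a, a signalling partner of the B cell receptor, was at 2246 CPM (UMIs of the gene per 1000000 UMIs of the cells) in B-like cells against 12.5 CPM in dendritic-like cells. Doublets had been removed before deposit, yet a recomputed doublet score was over its limit in 13.3% of the B-like cells of the Tim3-KD adjacent library and in 0.502 to 2.32% of those of the other libraries. Across libraries, 59 cell barcodes occurred more than once, 0 to 11 in any pair.

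Igkc lies on chromosome 6 (70726435 to 70726966, plus strand, GRCm38) and is annotated as 1 coding exon. The lambda genes lie on the minus strand of chromosome 16, Iglc1 at 19061618 to 19062071, Iglc3 at 19065230 to 19065681 and Iglc2 at 19198396 to 19200351, each with 1 coding exon in the transcript used here. Ighm (113418558 to 113422730) and Ighd (113406604 to 113416324) follow each other on the minus strand of chromosome 12, with 4 exons each in the transcripts used here. Iglc2 and Iglc3 are near copies, and one finding below rests on telling them apart, so the last 300 coding bases of each are shown from the GENCODE vM21 transcripts, 5′ to 3′, with the 11 bases that differ in capitals. They span chr16:19198539-19198838 for Iglc2 and chr16:19065368-19065667 for Iglc3.

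Iglc2: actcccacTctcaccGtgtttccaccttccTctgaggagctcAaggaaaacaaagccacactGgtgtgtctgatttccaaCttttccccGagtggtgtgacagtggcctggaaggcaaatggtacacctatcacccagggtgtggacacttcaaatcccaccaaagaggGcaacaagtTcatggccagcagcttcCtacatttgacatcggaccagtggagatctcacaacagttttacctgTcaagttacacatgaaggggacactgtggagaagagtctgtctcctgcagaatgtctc
Iglc3: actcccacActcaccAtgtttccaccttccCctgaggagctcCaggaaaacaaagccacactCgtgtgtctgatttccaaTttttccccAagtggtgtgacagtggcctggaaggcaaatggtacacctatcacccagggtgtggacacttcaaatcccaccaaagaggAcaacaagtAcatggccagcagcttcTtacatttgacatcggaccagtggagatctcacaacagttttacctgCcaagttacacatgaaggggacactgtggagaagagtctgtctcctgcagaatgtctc

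Over the aligned coding bases, Iglc2 and Iglc3 were equal at 303 of 314 (96.5%), while Iglc1 was equal to Iglc2 at 73.2% and to Iglc3 at 73.9%. The longest stretch that the Iglc2 and Iglc3 transcripts share without a difference is 79 bases, and none of the 369 windows of 90 bases (the length of the sequenced read) in the Iglc2 transcript occurs in Iglc3. A read trimmed to lie inside such a stretch cannot be told apart, and how such reads were assigned is not given in the sources used here, so the split between Iglc2 and Iglc3 is uncertain to that extent. The adjacent matrix also held a joint Iglc2-Iglc3 feature with 498 UMIs, 469 of them in B-like cells, which made up 5.15% of the UMIs of Iglc2, Iglc3 and the joint feature there. Reads of Balb/c mice were mapped to a reference of another strain, and the effect of this on the 6 genes was not tested.

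In B-like cells the 6 genes together gave 1.27% of all UMIs, from 1.11% (Tim3-KD macro) to 1.48% (Ctrl micro). Of these UMIs 54.2% were Igkc, 19.2% Ighm, 12.9% Iglc2, 4.91% Iglc1, 4.49% Ighd and 4.29% Iglc3. The kit tags molecules at their 3′ end, so these shares are of molecules counted and were not divided by length.

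Igkc, the kappa constant gene, was at 6771 CPM in Ctrl adjacent, 7029 in Tim3-KD adjacent, 7646 in Ctrl micro, 6050 in Tim3-KD micro, 6673 in Ctrl macro and 6236 in Tim3-KD macro. The lowest and the highest library were those of micrometastasis. Between 96.8 and 100% of the B-like cells of a library had an Igkc UMI, with a median of 24 to 67 UMIs per cell.

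Iglc2, the most abundant of the lambda genes here, was at 1681, 1599, 1971, 1757, 1698 and 1188 CPM in the same order, lowest in Tim3-KD macro. Iglc3 was at 411, 584, 618, 450, 519 and 550 CPM. Iglc1 was at 618, 412, 935, 638, 524 and 537 CPM and stood highest in Ctrl micro. Iglc1 was the least evenly spread of the 6 over single cells: its coefficient of variation over B-like cells was 2.51, against 0.655 for Igkc, and 9.65% of the cells held 66.3% of its UMIs.

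Ighm was at 2851, 2034, 3070, 1855, 2094 and 2164 CPM. The Ctrl adjacent and Ctrl micro libraries stood apart from the other 4, whose values ran from 1855 to 2164 CPM. Ighd was at 501, 637, 519, 587, 727 and 462 CPM, highest in Ctrl macro and lowest in Tim3-KD macro.

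**Figure D1:**
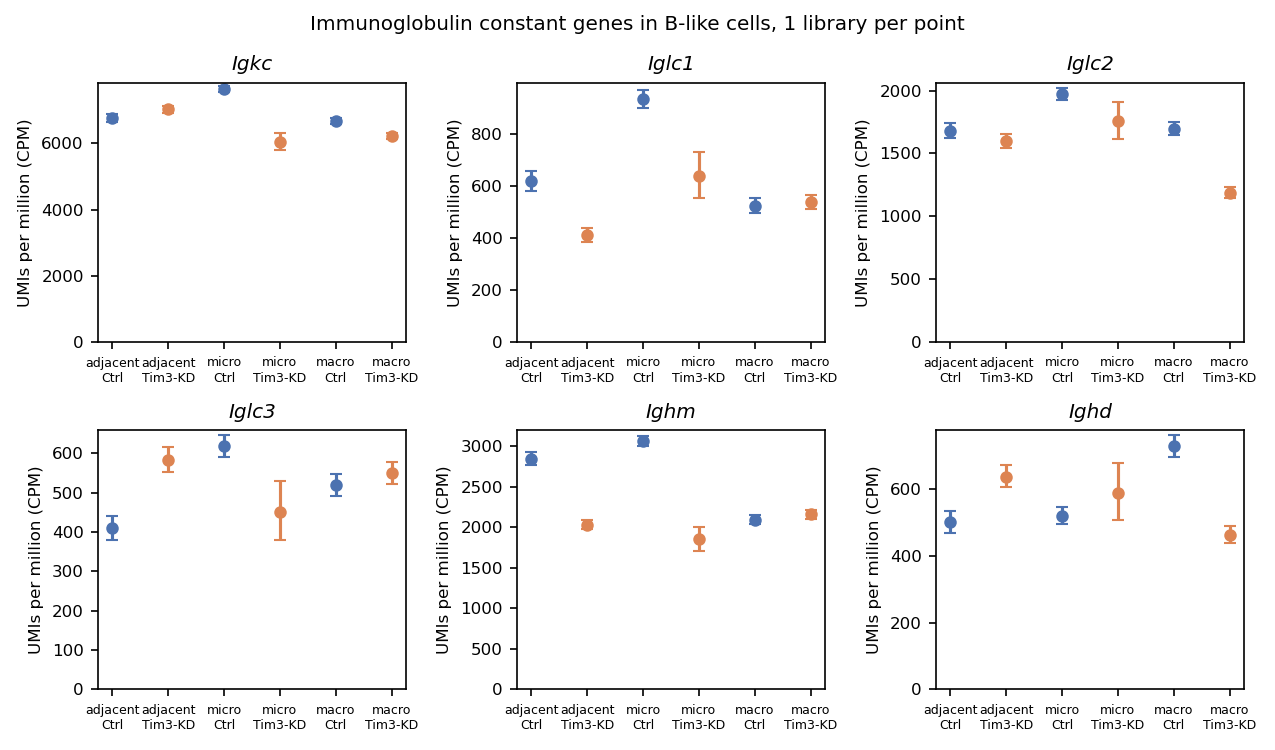
Level of each gene in B-like cells (CPM, y axis from 0) in each of the 6 libraries (x axis); points are libraries, bars 95% Poisson intervals, blue Ctrl and orange Tim3-KD. Igkc ran from 6050 to 7646 CPM, and Ighm was highest in Ctrl adjacent (2851 CPM) and Ctrl micro (3070 CPM).

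The comparison of Tim3-KD with Ctrl at each site asks whether the immune cells differ with Tim3 in the tumour cells. No member was past 2-fold in B-like cells at any site. Of all genes with at least 100 UMIs over both libraries, 19.6% were past 2-fold for the adjacent pair, 11.4% for the micro pair and 7.13% for the macro pair. The counting interval left out 1 for all 6 members in the adjacent pair (49.1% of all genes), for 5 in the micro pair (22.9%) and for 3 in the macro pair (36.9%). The members have larger counts than most genes, which narrows their intervals.

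Over the 3 sites together, a fit of the 6 libraries with site as a block (limma on log2(CPM + 10), added after these values were seen, 2 residual degrees of freedom) called 0 of 991 genes (0%) at an adjusted p of 0.05, with 12 at an unadjusted p under 0.05. No member was among the 12. The mean difference of Ighm was -0.39 (SE 0.20) on the log2 scale, with lower values in Tim3-KD at 2 of 3 sites (limma adjusted p = 0.999). That of Iglc2 was -0.25 (SE 0.18), with lower values at all 3 sites (limma adjusted p = 0.999). These values do not show that the levels were alike.

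In adjacent tissue, Iglc3 (584 against 411 CPM, ratio 1.42, interval 1.3 to 1.56) and Ighd (637 against 501 CPM, ratio 1.27, 1.17 to 1.39) were higher with Tim3-KD. Iglc1 (ratio 0.667, 0.61 to 0.728) and Ighm (0.713, 0.685 to 0.742) were lower. Igkc (1.04, 1.01 to 1.06) and Iglc2 (0.951, 0.905 to 0.998) differed by little. In the largest subcluster of B-like cells (number 11 of a finer clustering, 180 Tim3-KD and 158 Ctrl cells here), looked at after these values were seen, Ighd turned (0.801, 0.733 to 0.877), Ighm (0.971, 0.915 to 1.03) and Iglc1 (0.873, 0.759 to 1) had an interval that holds 1, and Iglc3 stayed higher (1.55, 1.37 to 1.76). The median ratio of the 6 was 0.996, and that of all genes 0.931.

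In micrometastasis, where Tim3-KD held only 71 B-like cells, Ighm had a ratio of 0.604 (0.556 to 0.656), Iglc1 0.683 (0.591 to 0.786), Iglc3 0.728 (0.612 to 0.861), Igkc 0.791 (0.756 to 0.828) and Iglc2 0.891 (0.817 to 0.971). Ighd was at 1.13 (0.969 to 1.31), whose interval holds 1, and it turned to 0.932 as a mean over cells and to 0.822 (0.684 to 0.982) in finer cluster 11, which held 40 of the Tim3-KD cells. In finer cluster 11 the intervals of Iglc1 (0.909, 0.709 to 1.15) and Iglc3 (0.892, 0.714 to 1.1) held 1. Ighm (0.791, 0.701 to 0.889), Igkc (0.839, 0.79 to 0.89) and Iglc2 (0.821, 0.722 to 0.931) stayed below 1 there. In B-like cluster 8 alone Iglc2 turned to 1.02 (0.936 to 1.12). The median ratio was 0.76 against 0.908 for all genes. With B cells called one by one from their markers in any cluster, 3 members were past 2-fold (Igkc 0.482, Iglc1 0.478, Ighm 0.4). Iglc3 (0.504), Iglc2 (0.601) and Ighd (0.733) were below 1 too. The call bars cells with UMIs of some markers of other classes, but of these S100a8 was in no matrix and Lyz2 only in the macro matrix. That call took 79 cells of the Tim3-KD library, of which 70 were also B-like and 5 were neutrophil precursor-like with a median of 33015 UMIs.

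In macrometastasis, Ighd (462 against 727 CPM, ratio 0.635, 0.591 to 0.682) and Iglc2 (1188 against 1698 CPM, ratio 0.7, 0.669 to 0.732) were lower with Tim3-KD, and Igkc slightly so (0.934, 0.915 to 0.954). The intervals of Ighm (1.03), Iglc3 (1.06) and Iglc1 (1.02) held 1, and in B-like cluster 8 alone Iglc1 was at 0.867 (0.795 to 0.945). In finer cluster 11 (289 Tim3-KD and 490 Ctrl cells) the Ighd interval held 1 (0.952, 0.883 to 1.03), Iglc2 was at a ratio nearer 1 (0.866, 0.818 to 0.917), and Igkc turned (1.07, 1.04 to 1.1). In B-like cluster 7 alone (58 Tim3-KD and 23 Ctrl cells) Iglc2 was past 2-fold lower (1453 against 4604 CPM, ratio 0.316, 0.276 to 0.361). Igkc (0.622, 0.575 to 0.674), Iglc1 (0.579, 0.494 to 0.681) and Ighm (0.65, 0.585 to 0.723) were lower there too, and the Ighd interval held 1 (1.13, 0.599 to 2.32). The median ratio was 0.977 against 0.894 for all genes.

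Between sites in the Ctrl libraries, again no member was past 2-fold, beside 3.99% of all genes for micro over adjacent and 6.63% for macro over micro. Iglc1 (1.51, 1.41 to 1.62) and Iglc3 (1.5, 1.38 to 1.64) had the highest ratios of micro to adjacent. The interval left out 1 for 5 members in that comparison (35.5% of all genes). From micro to macro, Iglc1 (0.561, 0.526 to 0.598) and Ighm (0.682, 0.66 to 0.705) were lower and Ighd was higher (1.4, 1.31 to 1.5), though not in finer cluster 11 (0.989, 0.921 to 1.06). In finer cluster 11 Iglc1 (0.751, 0.676 to 0.835) and Ighm (0.878, 0.838 to 0.921) were nearer 1. In B-like cluster 7 alone (23 macro and 144 micro cells) they went the other way, Iglc1 at 1.57 (1.35 to 1.81) and Ighm at 1.18 (1.07 to 1.29), as did Iglc2 at 1.76 (1.57 to 1.97). Over all B-like cells the interval of that comparison left out 1 for all 6 (43.1% of all genes). The 2 comparisons share the Ctrl micro library, and site and day cannot be told apart in the second.

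The median of all genes itself lay off 1 in these comparisons, by -0.10 (adjacent), -0.14 (micro) and -0.16 (macro) on the log2 scale for Tim3-KD over Ctrl, 0.14 for Ctrl micro over adjacent and 0.12 for Ctrl macro over micro. Relative to the trimmed mean of all genes, Igkc in macrometastasis stood at 1.06 and Iglc2 in adjacent tissue at 1.01, so their direction depends on the scaling.

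Of 35 genes listed for the B cell receptor and antibody pathway, 16 to 20 were in the matrices that a comparison used, and 15 to 17 of these had 100 UMIs. Of all genes, 19.6% (adjacent), 11.4% (micro) and 7.13% (macro) were past 2-fold for Tim3-KD over Ctrl. Between sites the shares were 3.99% (Ctrl micro over adjacent) and 6.63% (Ctrl macro over micro). In adjacent tissue 3 were past 2-fold higher with Tim3-KD, namely Fcmr, a receptor for IgM (3.54, 3.12 to 4.01), Cr2, a complement receptor (2.38, 1.69 to 3.39), and Fcer2a, the low affinity IgE receptor (2.3, 1.98 to 2.68). Vpreb1, a surrogate light chain gene (1 UMI against 105), and Vpreb3 (0.271, 0.242 to 0.304) were past 2-fold lower. Of the Vpreb1 UMIs, 77 lay in 9 cells of finer cluster 23 and 27 in finer cluster 22, which held 444 and 672 UMIs of Vpreb3. The Ctrl adjacent library held 9 and 58 B-like cells of these finer clusters, and Tim3-KD adjacent 0 and 11. In micrometastasis only Fcmr (0.209, 0.144 to 0.295) and in macrometastasis only Fcer2a (0.494, 0.435 to 0.56) passed, both lower. Between sites, Fcmr was higher in Ctrl micro than in Ctrl adjacent (2.76, 2.44 to 3.13) and Vpreb3 was lower in Ctrl macro than in Ctrl micro (0.424, 0.384 to 0.467). The partners of the receptor itself, Cd79a and Cd79b, were past 2-fold in none of the 5 comparisons, Cd79b coming nearest in micrometastasis (0.507, 0.437 to 0.585). Switched heavy chain isotypes and the plasma cell genes Jchain and Sdc1 were not analysed here.

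The B-like cells were of more than 1 kind, and the levels of the 6 genes differed between kinds. At the resolution used, B-like cells fell into cluster 8 (1991 cells, leading genes Cd79a, Ebf1, Ms4a1) and cluster 7 (300 cells, led by Vpreb3 and Ly6d). Over all libraries Ighm was at 4657 CPM in cluster 7 and 2114 in cluster 8, Iglc1 at 1605 and 482, Ighd at 179 and 625, and Igkc at 8342 and 6665. Cluster 7 made up 23.9, 5.1, 22.2, 4.23, 3.85 and 11.2% of the B-like cells in Ctrl adjacent, Tim3-KD adjacent, Ctrl micro, Tim3-KD micro, Ctrl macro and Tim3-KD macro. A finer clustering, looked at after these values were seen, split the B-like cells further. Finer cluster 11 (1556 cells, led by Cd79a, Ebf1, Fcmr and Fcer2a) held most of them. Finer cluster 22 (299 cells) was led by Vpreb3 and Ly6d, finer cluster 20 (404 cells) by Ms4a1 and Mzb1, and finer cluster 23 (30 cells) by Vpreb3 and Myl4.

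Finer cluster 22 had the highest levels of 5 of the 6 genes. Over all libraries Igkc was at 11601 CPM there against 7279 in finer cluster 11 and 4931 in finer cluster 20. Ighm was at 5750 CPM against 1865 and 2687, and Iglc1 at 2221 CPM against 359 and 775. Ighd went the other way, at 295 CPM in finer cluster 22, 134 in finer cluster 20 and 819 in finer cluster 11. The order of Ighm and of Ighd between finer clusters 11 and 22 was the same in each of the 5 libraries with at least 5 cells of both.

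Finer cluster 23 held the smallest lambda share, 13.3% of its light chain UMIs against 25 to 37.1% in the other finer clusters. Its 9 cells of Ctrl adjacent held 0 lambda UMIs among 334, while the share was 12.2% in the 13 cells of Ctrl micro and 15% in the 7 of Tim3-KD macro. The single Tim3-KD micro cell held 64 of the 170 lambda UMIs, and without it the share of the finer cluster was 9.16%. Over all libraries Igkc was at 1987 CPM, Ighm at 2118 CPM and Ighd at 30.5 CPM. Its cells were deep, with a median of 15262 UMIs. In the adjacent matrix, which holds the surrogate light chain genes that precede light chain expression in B cell development, 7 of these 9 cells had a Vpreb1 UMI and 7 an Igll1 UMI. In finer cluster 22 the same genes were found in 8 and 6 of 69 cells, and in finer cluster 11 in 1 and 0 of 338.

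The ratio of Ighd to Ighm UMIs was 0.176 (0.163 to 0.189) in Ctrl adjacent, 0.313 (0.295 to 0.333) in Tim3-KD adjacent, 0.169 (0.16 to 0.178) in Ctrl micro, 0.316 (0.268 to 0.373) in Tim3-KD micro, 0.347 (0.33 to 0.366) in Ctrl macro and 0.213 (0.201 to 0.227) in Tim3-KD macro. The libraries thus formed a low set of 3 and a high set of 3. Tim3-KD stood in the high set in adjacent tissue and micrometastasis and in the low set in macrometastasis.

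Within finer cluster 11 the ratio was 0.468, 0.386, 0.423, 0.44, 0.476 and 0.464 in the same order, all above the values over all B-like cells and with no such split. In finer cluster 22 it was 0.0386 to 0.0592 over the 5 libraries with at least 5 cells, and in finer cluster 20 it was 0.00733 to 0.0676 in 5 libraries and 0.215 in Tim3-KD micro. The 3 libraries with the low ratio had 11.2 to 23.9% of their B-like cells in cluster 7, and the other 3 had 3.85 to 5.1%. The same 2 sets were seen in cluster 8 alone, without cluster 7, at 0.252 (Ctrl adjacent), 0.241 (Ctrl micro) and 0.26 (Tim3-KD macro) against 0.347, 0.335 and 0.378. In Tim3-KD macro, 161 of the 518 B-like cells were also in finer cluster 20. The part of the cell mix in the differences between libraries was not tested.

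**Figure D2:**
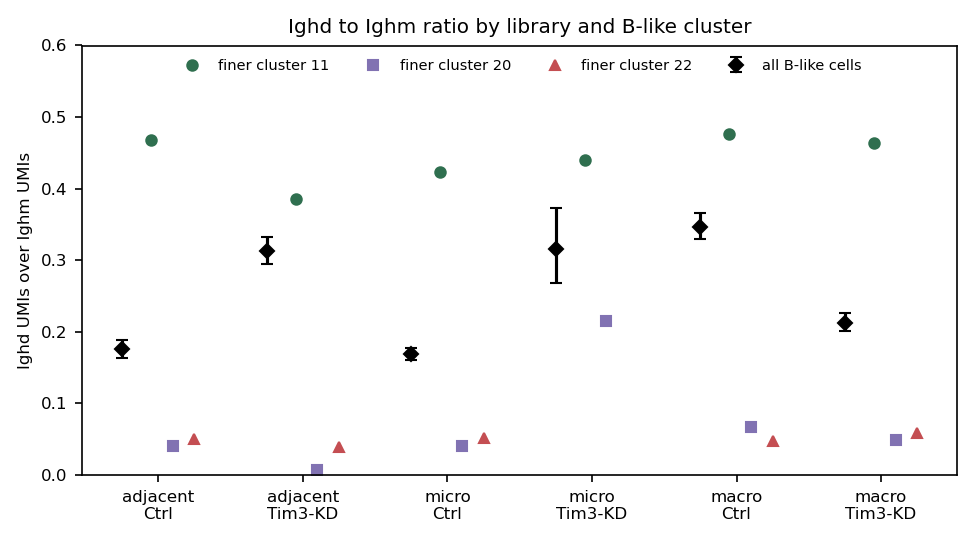
Ratio of Ighd to Ighm UMIs (y axis) in each library (x axis) for all B-like cells (black diamonds, bars 95% counting intervals) and for 3 finer clusters; clusters with under 5 cells in a library are not drawn. Over all B-like cells the ratio ran from 0.169 to 0.347, while finer cluster 11 ran from 0.386 to 0.476.

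Most B-like cells (74.8%) held UMIs of both heavy chain genes, 23% of Ighm only and 0.393% of Ighd only. Ighd UMIs outnumbered Ighm UMIs in 251 cells (11%), of which 250 were in cluster 8. Neither gene was seen in 1.79% of the B-like cells, from 0% (Tim3-KD micro) to 4.05% (Tim3-KD macro). Of these, 37 cells still had at least 10 light chain UMIs, 17 of them in Tim3-KD macro. One such cell, singled out after its values were seen, had the highest Igkc count of all B-like cells: 642 Igkc UMIs of 17600 in all, with 0 Ighm and 0 Ighd. The heavy chain it uses is not analysed here.

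Low light chain counts also gathered in 1 library. Fewer than 10 light chain UMIs were found in 5 of 259, 1 of 196, 7 of 649, 2 of 71, 17 of 598 and 52 of 518 B-like cells, the last (Tim3-KD macro) being 10% (7.59 to 13). The 52 cells had a median of 3501.5 UMIs against 4150 in the other B-like cells of that library, all 52 had a UMI of a B marker, and their Igkc level was 1186 CPM. Of the 84 such cells in all libraries, 62 were in finer cluster 20.

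Light chain choice was read per cell in the 2207 B-like cells with at least 10 light chain UMIs. A cell was called kappa or lambda where 80% or more of its light chain UMIs were on that side, and mixed otherwise. By this rule 916 cells (41.5%, 39.4 to 43.6) were kappa, 89 (4.03%, 3.25 to 4.94) lambda and 1202 (54.5%, 52.4 to 56.6) mixed. UMIs of both sides were found in 95.1% of the cells.

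The lambda share of a cell's light chain UMIs formed 1 broad peak with a median of 23.3% and a separate group at the end, with 53 cells at 95% or more. The threshold for kappa cut through the peak, with 559 cells at a lambda share between 15 and 25%, whereas only 23 cells lay between 75 and 85%.

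**Figure D3:**
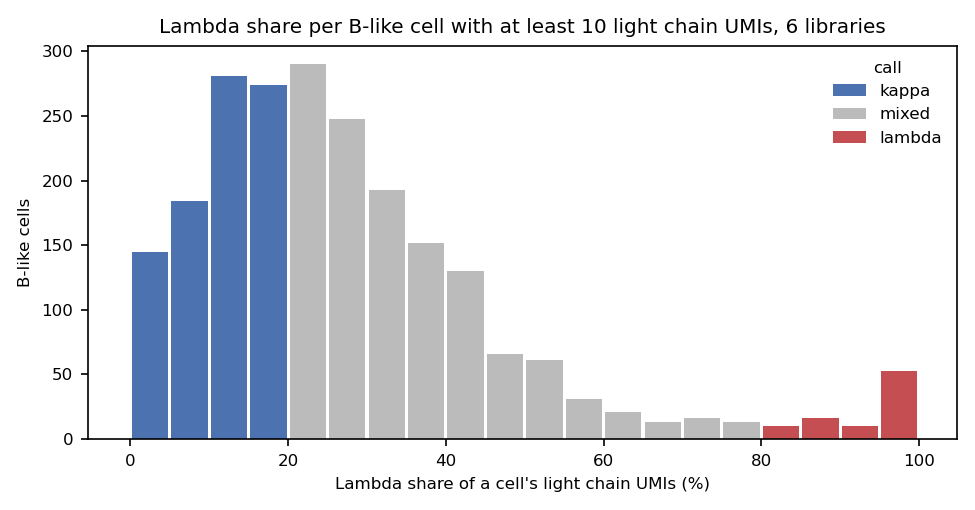
Number of B-like cells (y axis) by the lambda share of their light chain UMIs (x axis, %, bins of 5 points) for the 2207 cells with at least 10 light chain UMIs. Blue bars were called kappa, grey mixed and red lambda; cells at exactly 20% were called kappa but stand in the first grey bar, and the last bar holds the 53 cells at 95% or more.

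The share of lambda cells was 3.54% (1.63 to 6.62) in Ctrl adjacent, 1.54% (0.318 to 4.43) in Tim3-KD adjacent, 5.14% (3.56 to 7.14) in Ctrl micro, 2.9% (0.353 to 10.1) in Tim3-KD micro, 4.48% (2.94 to 6.49) in Ctrl macro and 3.43% (1.98 to 5.52) in Tim3-KD macro. Tim3-KD had the lower share at each site, resting on 3, 2 and 16 cells. The intervals of the 2 libraries overlapped at every site, and with 1 library per group the difference could not be tested. Kappa cells were 26.1% (16.3 to 38.1) in Tim3-KD micro and 39.6 to 47.2% elsewhere.

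Lambda cells were led by Iglc2 in 50 cells, by Iglc1 in 35 and by Iglc3 in 4. The leading gene held 80% or more of the lambda UMIs in 21 of the Iglc2 cells, 11 of the Iglc1 cells and 0 of the Iglc3 cells. No Igkc UMI was found in 43 of the 89, and Igkc was at 622 CPM in lambda cells against 8245 CPM in kappa cells. Ighd was at 271 CPM in lambda cells and 603 CPM in kappa cells, for an Ighd to Ighm ratio of 0.0816 against 0.299. Of the lambda cells 22.5% were in cluster 7, against 8.52% of the kappa cells, and the part of this in the ratio was not tested.

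Lambda UMIs were also found in cells not called lambda. Iglc2 was at 708 CPM in kappa cells, beside 8245 CPM of Igkc, and at 2120 CPM, beside 6747 CPM of Igkc, in mixed cells, which are defined by their lambda share. In kappa and mixed cells together it was at 1171 to 1759 CPM in the 6 libraries. In cells that were neither B-like nor plasmacytoid dendritic-like and had no UMI of a B marker it was at 0.14 to 7.67 CPM. Iglc2 per Igkc UMI was 0.169 to 0.251 in the first and 0.0446 to 0.184 in the second. The doublet score was over its limit in 2.07% of kappa, 2.25% of mixed and 1.12% of lambda cells. UMIs were counted over exons and introns, so transcripts of an unrearranged or silent locus would count too, and their part was not tested.

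Among cells other than B-like, an Igkc UMI was found in 8.61% (7.26 to 10.1) of Ctrl adjacent, 34.4% (29.4 to 39.7) of Tim3-KD adjacent, 5.99% (5.31 to 6.73) of Ctrl micro, 1.91% (1.55 to 2.33) of Tim3-KD micro, 9.11% (8.27 to 10) of Ctrl macro and 8.95% (8.17 to 9.78) of Tim3-KD macro. Their median depth was 6890 to 11735.5 UMIs. With every cell thinned to 1500 UMIs the shares were 2.66, 8.38, 2.24, 0.868, 3.89 and 3.21%, again highest in Tim3-KD adjacent and lowest in Tim3-KD micro. The extremes of Igkc outside B-like cells were also those of the B-like share, 36.2% of cells in Tim3-KD adjacent and 1.38% in Tim3-KD micro.

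Ighm had the same extreme libraries but a narrower range. It was found in 21.2, 29.2, 14.3, 11, 13.6 and 13.2% of the other cells, and Tim3-KD micro, with 71 B-like cells, had 560 other cells with an Ighm UMI. Of all Ighm UMIs of that library 72% lay outside B-like cells, against 28.1% of the Igkc UMIs. Iglc1, Iglc2 and Ighd were each in 0.611 to 10.1% of the other cells of a library.

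The classes were next compared without any cell that had a UMI of a B marker, the list of which includes Cd79a, Cd79b and Ms4a1. With the libraries pooled, Igkc was in 3.9 to 7.38% of the cells of all classes but the plasmacytoid dendritic-like one. Its share of the UMIs of the 6 genes, 54.2% in B-like cells, differed between classes. It also differed between libraries of 1 class, and most of these shares rest on few UMIs. Among libraries with at least 20 such cells, dendritic-like cells had 1.79 to 6.43% in 5 libraries, and NK or ILC1-like cells had 9.09 to 15.8% in 5. The range was 19.3 to 65.6% in mature neutrophil-like, 14.2 to 57.1% in neutrophil precursor-like, 9.86 to 42.3% in T-like and 1.93 to 30.5% in monocyte-like cells. It was 27.8 to 80% in Kupffer-like cells, from 5 to 169 UMIs a library, and 60 to 100% in endothelial-like cells, from 1 to 29. Most of these ranges overlap. Endothelial-like cells, which should lack these genes, give the level that the other classes are set against, and the part of free RNA in droplets was not tested. That level was uneven over libraries: in Tim3-KD adjacent 31% of all cells other than B-like without a B marker UMI had an Igkc UMI, among them 38.7% of the endothelial-like cells.

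Ighm was found in more cells of some classes than of endothelial-like cells. It was in 61.3% (56.8 to 65.7) of dendritic-like and 25.1% (23.4 to 26.8) of monocyte-like cells, where it made up 92.9 and 86.9% of the UMIs of the 6 genes. In NK or ILC1-like cells it was in 17.4% and in T-like cells in 16.4%, against 1.61% of endothelial-like cells. Dendritic-like cells had a median of 13943 UMIs and endothelial-like cells one of 3985. With each cell thinned to 1500 UMIs, Ighm was in 12.9% of dendritic-like, 4.87% of monocyte-like and 0.642% of endothelial-like cells. By library, Ighm was in 68.2, 64.6, 46.1, 68.6 and 57.1% of the dendritic-like cells of Ctrl adjacent, Ctrl micro, Tim3-KD micro, Ctrl macro and Tim3-KD macro, while Igkc was in 2.25 to 10.5% of them. Tim3-KD adjacent had fewer than 20 such cells.

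**Figure D4:**
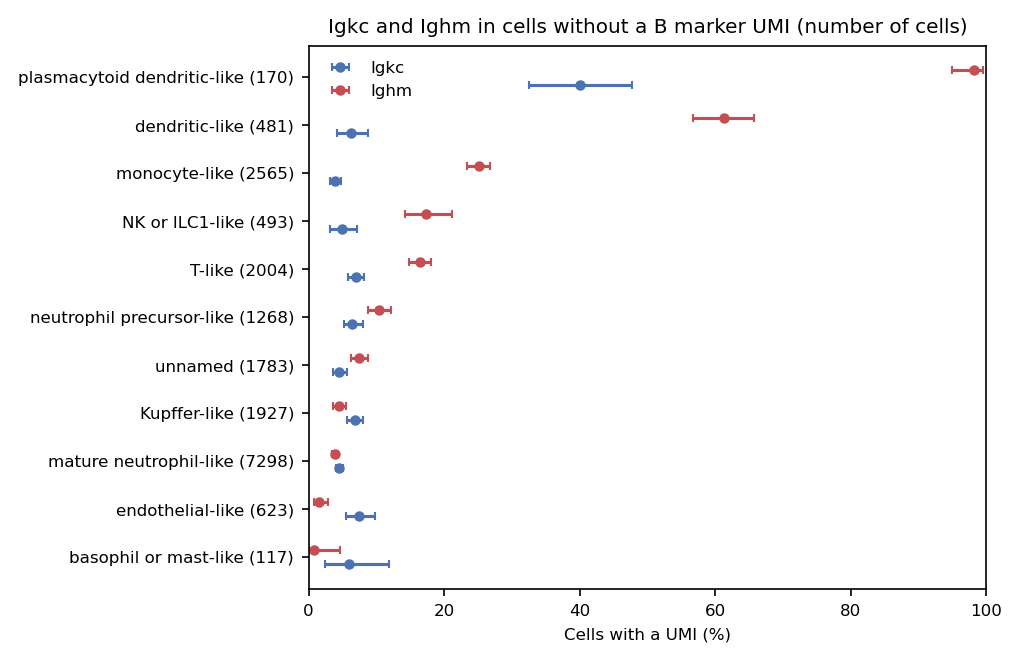
Share of cells with a UMI of Igkc (blue) or Ighm (red) in each class (y axis, number of cells in brackets), cells with a UMI of a B marker left out; bars are 95% binomial intervals. Igkc lay between 3.9 and 7.38% in all classes but the plasmacytoid dendritic-like one, while Ighm ran from 0.855 to 98.2%.

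One T-like cluster carried more Igkc than the others. Cluster 16 (422 cells, led by Ctla4, Tnfrsf4 and Rora) had an Igkc UMI in 36.3% of its cells, against 7.14 to 11% in the other 3 T-like clusters. At least 5 Igkc UMIs were found in 112 of its cells. Of these, 93.8% also had a UMI of a B marker and 29.5% a doublet score over the limit, and their median depth was 8429.5 UMIs against 6302.5 in the whole cluster. Without cells that had a B marker UMI, 12.8% of the cluster had an Igkc UMI. The finer clustering split cluster 16 in 2. Finer cluster 17 (316 cells, led by Ctla4, Tnfrsf4 and Rora) had an Igkc UMI in 15.5% of its cells. Finer cluster 32 (106 of the cells) was led by genes of both lineages, among them Ctla4, Cd28, Cd79a and Ebf1. It held 98 of the 112 cells with at least 5 Igkc UMIs, a B marker UMI was found in 99.1% of it, and the doublet score was over its limit in 33%, against 5.7% in finer cluster 17.

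Plasmacytoid dendritic-like cells (254, led by Siglech, Ccr9 and Bst2) carried all 6 genes at unlike levels. These cells are the main producers of type I interferon and share part of the gene programme of lymphoid cells. Ighm was in 98.4% of them at 1078 CPM, and Iglc3 in 87% at 664 CPM, against 411 to 618 CPM in the B-like cells of the 6 libraries. Igkc was in 46.5% at 912 CPM, Iglc2 in 18.5% at 153 CPM, Iglc1 in 16.1% at 126 CPM and Ighd in 11% at 32.1 CPM. In the 170 cells without a B marker UMI, Iglc3 (638 CPM) and Ighm (931 CPM) changed little, whereas Igkc was at 466, Iglc2 at 64.7, Iglc1 at 46.5 and Ighd at 6.54 CPM.

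The ratio of Iglc3 to Iglc2 UMIs was 49.5 (13.3 to 414, from 2 Iglc2 UMIs) in Ctrl adjacent, 4.23 (3.02 to 6.05) in Tim3-KD adjacent, 3.01 (2.48 to 3.66) in Ctrl micro, 9 (4.95 to 18) in Tim3-KD micro, 3.76 (3.04 to 4.67) in Ctrl macro and 8.46 (5.71 to 13) in Tim3-KD macro. In B-like cells it was 0.244, 0.365, 0.313, 0.256, 0.306 and 0.462. The ratio was above 1 in the plasmacytoid dendritic-like cells and below 1 in the B-like cells of every library. Over all libraries the ratio was 4.35 (3.86 to 4.91) against 0.333 (0.324 to 0.342), and 9.87 (7.93 to 12.4) in the 170 plasmacytoid dendritic-like cells without a B marker UMI, where the lowest library was Tim3-KD adjacent (1.95, 1.34 to 2.89, from 11 cells). Iglc3 outnumbered Iglc2 in 202 of the 254 cells, and Iglc2 outnumbered Iglc3 in 19. Reads from the coding part can separate the 2 genes only at the 11 bases in capitals in the sequences above. The joint feature held 22 UMIs in these cells in the adjacent matrix.

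**Figure D5:**
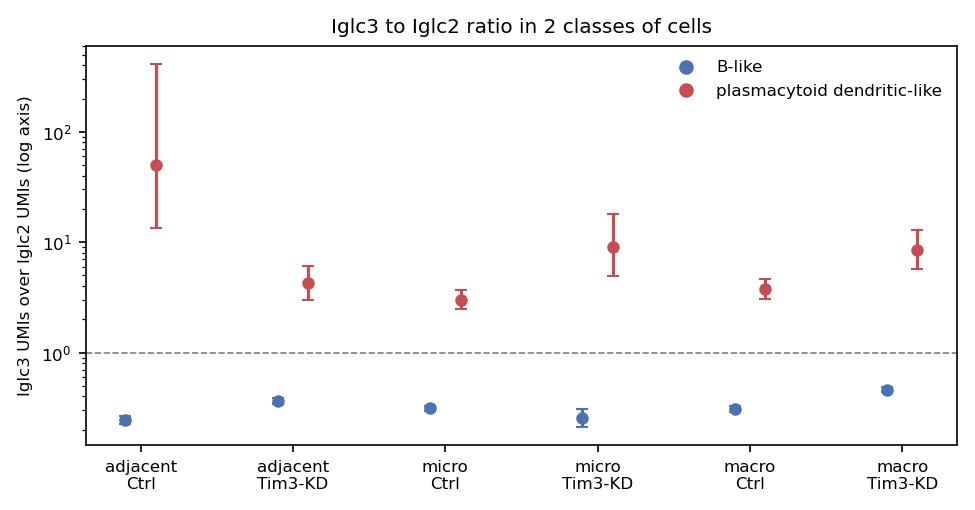
Ratio of Iglc3 to Iglc2 UMIs (y axis, log scale; the dashed line is 1) in each library (x axis) for B-like (blue) and plasmacytoid dendritic-like (red) cells, with 95% counting intervals. B-like cells lay between 0.244 and 0.462 and plasmacytoid dendritic-like cells between 3.01 and 49.5.

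Igkc was spread over these cells less evenly than Iglc3. Its median was 0 UMIs and its highest count 132, and 57 cells with at least 10 Igkc UMIs held 90.4% of it. The median of Iglc3 was 4 and that of Ighm 7. In micrometastasis Igkc, Iglc1, Iglc2 and Ighd were past 2-fold lower with Tim3-KD in this class (10.4% of all genes with at least 100 UMIs), with Igkc at 191 against 1420 CPM (0.135, 0.0937 to 0.188). In macrometastasis Iglc1, Iglc2 and Ighd were, beside 9.83% of all genes. Ighd was under 100 UMIs at both sites. Iglc3 (0.816, 0.654 to 1.01 in micrometastasis and 1.01, 0.859 to 1.19 in macrometastasis) had an interval that holds 1 at both sites. Lower values in micrometastasis were not particular to this class. Over all cells other than B-like, this class included, the ratios there were 0.27 (Igkc), 0.275 (Iglc1), 0.375 (Iglc2), 0.21 (Iglc3), 0.491 (Ighm) and 0.463 (Ighd). A B marker UMI was present in 84 of the 254 cells, and the doublet score was over its limit in 7.48%. Without the cells that had a B marker UMI, Igkc was at 124 CPM in Tim3-KD micro against 702 in Ctrl micro (0.177, 0.103 to 0.285), while Iglc1 and Iglc2, both at 34.5 against 36.2 CPM from 5 and 13 UMIs, and Ighd, at 6.9 against 8.36 CPM, were no longer past 2-fold. In macrometastasis Igkc was then at 134 CPM with Tim3-KD against 537 CPM (0.25, 0.153 to 0.388), past 2-fold, where its ratio over all cells of the class was 0.798. Iglc1 and Iglc2 had 0 UMIs in the 20 Tim3-KD macro cells, beside 84.4 and 69.1 CPM in the 48 Ctrl macro cells. Ighd was on the other side of 1 there, at 6.09 against 5.12 CPM (1.19, 0.0202 to 22.9).

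Likeness across the series followed the same division. Over 56 profiles of library by class, which share libraries and depth, the genes most like Igkc were Cd79a (Pearson's r 0.97 on log2(CPM + 10)) and Ebf1 (0.96), and those most like Iglc2 were Ebf1 and Cd79a (both 0.98). Iglc1 was most like Ms4a1, which encodes CD20 (0.97), and Ighd most like Ebf1 and Pax5, transcription factors of the B lineage (both 0.99). Iglc3 was most like Mzb1 (0.99), Blnk (0.98) and Spib (0.97). Of the 5 genes most like Iglc3, some were higher in plasmacytoid dendritic-like than in B-like cells: Spib (229 against 81.2 CPM), Blnk (237 against 134) and Ly6d (288 against 264). The others were lower there, Mzb1 at 246 against 396 CPM and Fcrla at 144 against 204. Ebf1 was at 75.9 CPM in plasmacytoid dendritic-like and 1248 CPM in B-like cells. Ighm had the lowest top values, with Irf4, Fcrla and Tnfrsf13c at 0.92 each.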

How the data were processed

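Per the study's methods, the authors trimmed reads with Trim Galore (0.4.3 in the submitters' processing notes), mapped them with STAR (2.7.7a) to GRCm38, counted UMIs over exons and introns, filtered cells, removed doublets (Scrublet) and kept variable genes. The deposited matrices, 1 per site with both libraries of the site, hold scores that the authors scaled per gene and capped at 10. The design had assumed count-like values. Because cells without a UMI lie on 1 line per gene, totals and UMIs could be recovered, and 99.997% or more of the uncapped detected values of each matrix came out whole within 0.05. Capped values, 6 of Iglc1 and 0 of the other members, are the smallest UMI number that reaches the cap. The recovery and the ratio interval were tested on simulated data. These were drawn with Poisson counts and the same score model, so spread beyond counting error was not covered.

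Cells were clustered (scanpy 1.11.5, leidenalg 0.10.2, Leiden resolution 1, 30 components, 15 neighbours) on 1636 genes, without the 6 members, and named "-like" from marker lists. One gene of the B marker list is not reported here. No cell was left out as a doublet. CPM are summed UMIs per 1000000 of all recovered UMIs. Intervals are exact Poisson, binomial or conditional binomial (scipy 1.17.1). With 1 library per group, no test was run within a site, and limma (3.58.1) with site as a block was fitted to the B-like sums of the 6 libraries. Genes compared had 100 or more UMIs over both libraries. Named genes are the members, the 5 genes most like each (immunoglobulin genes left out), and a list of 35 pathway genes. The members and lists were chosen with earlier results of these data known.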

Additional observations from a re-analysis of the deposited data

Results flagged for a closer look

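For 3 genes the Tim3-KD over Ctrl ratio in B-like cells lay above 1 at one site and below 1 at another, with both counting intervals leaving out 1. The differences between sites were not tested. Igkc had a ratio of 1.04 (1.01 to 1.06) in adjacent tissue, 0.791 (0.756 to 0.828) in micrometastasis and 0.934 (0.915 to 0.954) in macrometastasis. Its adjacent value turned to 0.996 without high doublet scores and to 0.906 as a mean over cells, and its macro value to 1.06 relative to the trimmed mean, and in finer cluster 11 alone they were 0.985 and 1.07, so the direction of neither holds under all settings. Iglc3 had 1.42 (1.3 to 1.56) in adjacent tissue and 0.728 (0.612 to 0.861) in micrometastasis. Ighd had 1.27 (1.17 to 1.39) in adjacent tissue and 0.635 (0.591 to 0.682) in macrometastasis. In B-like cluster 8 alone, Iglc3 was at 1.44 and 0.835, and Ighd at 1.09 in adjacent tissue, where the interval (0.997 to 1.19) holds 1, and 0.676 in macrometastasis. In finer cluster 11 alone both Ighd ratios were below 1, at 0.801 (0.733 to 0.877) in adjacent tissue and 0.952 (0.883 to 1.03) in macrometastasis. Iglc3 was at 1.55 (1.37 to 1.76) in adjacent tissue there and 0.892 (0.714 to 1.1) in micrometastasis. In B-like cluster 7 alone, Ighd in macrometastasis was at 1.13 (0.599 to 2.32).

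The joint Iglc2-Iglc3 feature, which belongs to neither gene, held 498 UMIs in the adjacent matrix. The reported comparisons leave it out, and it entered only the alternative count of lambda UMIs.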

How the results depend on the processing

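No paired analysis was possible within a site because each group is 1 library; the fit over sites with site as a block called 0 genes, and 3, 0 and 0 without adjacent tissue, micrometastasis and macrometastasis, none of them a member. Intervals cover counting error only. Of 180 member levels under alternatives 85 left the interval of the reported value, and those of Igkc are given here; the causes were not tested. The fit with site as a block, B-like clusters 7 and 8 alone, finer cluster 11 alone and the joint feature were alternatives chosen after seeing the data.

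Igkc in B-like cells moved in Ctrl adjacent (6771 CPM) to 6337 with B cells called one by one, 7046 without high doublet scores, 6591 in cluster 8 and 8152 as a mean over cells. In Tim3-KD adjacent (7029) the mean over cells was 7389. In Ctrl micro (7646) it moved to 7177 one by one, 7070 without cells under 3000 UMIs, 7840 without high doublet scores, 7042 in cluster 8 and 8874 as a mean over cells. In Tim3-KD micro (6050) it moved to 3459 one by one, 6360 in cluster 8 and 6379 as a mean over cells. In Ctrl macro (6673) it moved to 6544, 6551, 6554 and 6954 (one by one, without cells under 3000 UMIs, in cluster 8, mean over cells), and in Tim3-KD macro (6236) to 6536 one by one and 6774 as a mean over cells.

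The number of members past 2-fold, 0 in each comparison, moved to 3 for micrometastasis with B cells called one by one and to 1 (Iglc1, 0.496) for Ctrl macro over micro as a mean over cells, and to 1 (Iglc2, 0.316) for macrometastasis in cluster 7. It was 0 under all other settings. Of 192 ratios under alternatives 92 left the reported interval, apart from those that turned from a side the interval had set, and 28 lay on the other side of 1. For 11 of these the reported interval holds 1: Ighd in micrometastasis went to 0.733 one by one, 0.932 as a mean over cells and 0.822 in finer cluster 11, and in macrometastasis Iglc1 went to 0.935 without cells under 3000 UMIs and 0.867 in cluster 8, and Ighm to 0.981 in cluster 8 and 0.977 in finer cluster 11; in cluster 7, Iglc1, Iglc3 and Ighm in macrometastasis went to 0.579, 0.804 and 0.65, and Ighd for Ctrl micro over adjacent to 0.993. For the other 17 it leaves out 1. In cluster 7 alone Ighd in macrometastasis went to 1.13, and for Ctrl macro over micro Igkc, Iglc1, Iglc2, Iglc3, Ighm and Ighd went to 1.06, 1.57, 1.76, 1.1, 1.18 and 0.787. In finer cluster 11 alone Igkc went to 0.985 (adjacent) and 1.07 (macro), and Ighd to 0.801 (adjacent) and, for Ctrl macro over micro, 0.989. Igkc in adjacent tissue went to 0.996 without high doublet scores and 0.906 as a mean over cells, Iglc2 in adjacent tissue to 1.03 one by one and 1.01 relative to the trimmed mean, Iglc2 in micrometastasis to 1.02 in cluster 8, and Igkc in macrometastasis to 1.06 relative to the trimmed mean.

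The lambda share moved, for a call at 0.6 of the UMIs, to 7.48% (Ctrl adjacent), 8.72% (Ctrl micro) and 6.88% (Ctrl macro), and at 0.9 to 1.93% (Tim3-KD macro); 28 of 32 values stayed within the interval.

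The Ighd to Ighm ratio moved in cluster 8 alone to 0.252 (Ctrl adjacent), 0.347 (Tim3-KD adjacent), 0.241 (Ctrl micro), 0.378 (Ctrl macro) and 0.26 (Tim3-KD macro), and in finer cluster 11 alone to 0.468, 0.386, 0.423 (Ctrl micro), 0.44 (Tim3-KD micro), 0.476 and 0.464 in the order of the report. One by one it was 0.232 in Tim3-KD macro.

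The share of cells other than B-like with an Igkc UMI moved, thinned to 1500 UMIs, to 2.66, 8.38, 2.24, 0.868, 3.89 and 3.21% in the order of the report. Without cells that had a B marker UMI it moved to 6.85% (Ctrl adjacent), 4.9% (Ctrl micro), 1.18% (Tim3-KD micro), 7.52% (Ctrl macro) and 7.04% (Tim3-KD macro).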
